A study of Mus musculus with 6 samples.

Results

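The genes described here serve the 2 linked programmes by which a cell answers protein-folding load in the endoplasmic reticulum (ER) and shortage of amino acids. They are 38 named genes out of the 54532 in the deposited table, matched by gene symbol, and they were followed through all 6 muscle RNA-seq libraries of the series. The genes were chosen with earlier results of these data known. The list holds 5 stress sensors and transcription factors, 2 subunits that direct eIF2α phosphatase, 11 chaperones and chaperone partners, 3 disulfide isomerases, 5 genes of ER-associated degradation and 12 genes linked to the transcription factor ATF4.

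Proteins that enter the ER are folded there by chaperones such as BiP and joined by disulfide bonds made by isomerases. When unfolded protein builds up, the sensors IRE1α, PERK and ATF6 start the unfolded protein response. IRE1α splices the Xbp1 transcript, and ATF6 is cut to release a transcription factor, and together they raise chaperone and degradation genes. PERK shares its substrate eIF2α with other kinases that sense amino acid shortage, haem shortage or virus. This shared branch, the integrated stress response, slows translation while favouring translation of Atf4, whose targets make and import amino acids. In skeletal muscle the ER is drawn out into the sarcoplasmic reticulum, which stores calcium and holds calreticulin and calnexin as well.

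All mice were C57BL/6 and homozygous for a floxed Igf2 allele (Igf2f/f), with loxP sites on either side of exon 2 of Igf2, the gene for insulin-like growth factor 2. The Igf2 cKO group (Mck-Cre+; Igf2f/f, n = 3) also carried Cre driven by the muscle creatine kinase promoter, which is active in striated muscle, so blood, vessel, fat and connective tissue cells in the same sample kept the gene. The controls (Mck-Cre-; Igf2f/f, n = 3) were littermates without Cre, so no group carries Cre without the floxed allele. The muscle, the age and the sex are not named in the labels. Library totals lay between 16184371 and 17905203 counts, with 20791 to 21401 genes counted at least once. The targeted gene was scarce in both groups, with 60, 43 and 39 counts in the control libraries and 33, 37 and 42 in the Igf2 cKO libraries (log2 fold change -0.31 ± 0.25 SE, adjusted p = 0.751). Since the gene-level count does not isolate exon 2, it says nothing about the genotype labels. The summed level of 10 muscle fibre markers lay between 105509 and 128438 CPM (counts scaled to a common library size) in controls and between 84707 and 106171 in Igf2 cKO muscle, so the defining genes of the labelled tissue were abundant in every library. In these bulk samples fewer cells of a type and less RNA per cell cannot be told apart.

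CPM values use TMM library sizes, and changes are given as log2 fold changes of Igf2 cKO over control from edgeR, with the standard error (SE). Calls needed an adjusted p under 0.05, with the adjustment made over all 14867 tested genes, and 0.249% of these (37 genes) passed in either direction. None of the members was called: 0 of the 36 that could be tested passed, and the smallest adjusted p was 0.0533, for Manf. DESeq2 called 5 of the 36 (Hspa5, Hyou1, Manf, Creld2 and Pdia6), against 220 of all 14867 genes. Limma-voom called 0 of the 36, against 34 of all genes. At an unadjusted p under 0.05, 14 members were higher and 1 was lower in Igf2 cKO muscle. Over all genes that rule took 5.11% as higher and 4.82% as lower, which compares with 38.9% of the members as higher. In 15 members all 3 Igf2 cKO libraries lay above all 3 control libraries, against 7.83% of all genes, and in 0 members all 3 lay below, against 7.67%. The median log2 fold change was 0.20 over the 36 members and 0.0038 over all genes. Leaving out both control replicate 3 and Igf2 cKO replicate 3, the libraries with the lowest and the highest summed level of adipocyte markers, left 5 members at an unadjusted p under 0.05, all of them higher. In that fit 3.37% of all genes were higher by the same rule.

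The groups of members had unlike medians. The 14 chaperones and isomerases had a median of 0.43, the 10 tested ATF4-linked genes one of 0.25, the 5 degradation genes one of 0.019, and the 7 sensors, factors and phosphatase subunits one of -0.0032. These medians are descriptions, with no test between the groups.

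**Figure D1:**
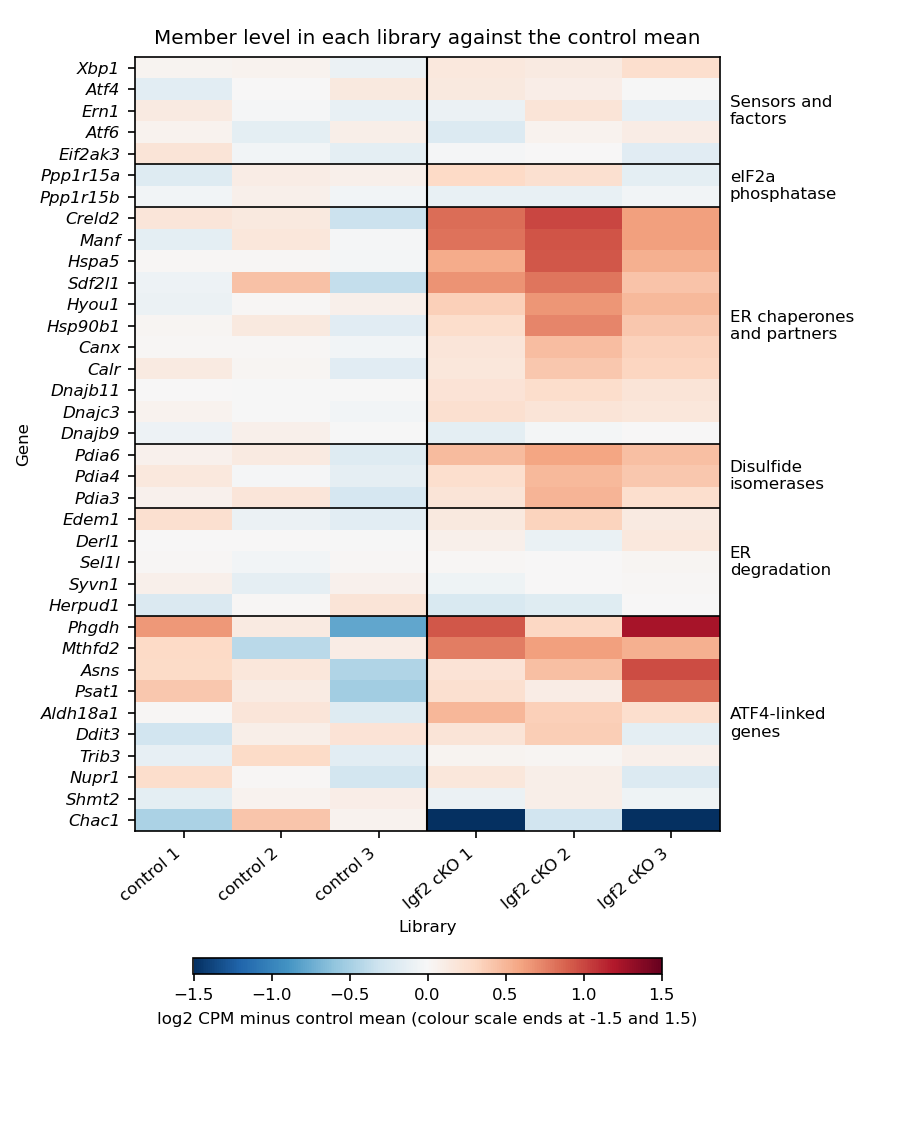
Level of each of the 36 tested genes (rows, grouped by role) in each of the 6 libraries (columns), as log2 CPM minus the mean of the 3 control libraries, with a colour scale that ends at -1.5 and 1.5. The chaperone and isomerase rows are red to pale red in the 3 Igf2 cKO libraries except for Dnajb9, the sensor and degradation rows stay pale, and Chac1 is dark blue in Igf2 cKO replicates 1 and 3 and pale blue in replicate 2.

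In control muscle the members spanned a wide range of levels. Compared per length of transcript, with the authors' FPKM, Herpud1 stood first at 86.4 ± 12.2 FPKM (SD, n = 3), followed by Atf4 at 77.9 ± 8.38, Chac1 at 75.5 ± 22.7, Calr at 62.0 ± 6.40 and Hspa5 at 43.3 ± 0.725. The first 3 do not differ beyond their spread between libraries. At the other end stood Mthfd2 at 1.07 ± 0.263 FPKM, Asns at 1.38 ± 0.359 and Psat1 at 1.44 ± 0.445, and Gdf15 and Fgf21 were at the limit of detection. The chaperones other than Calr and Hspa5 lay between, from 4.12 ± 1.21 FPKM for Sdf2l1 to 24.8 ± 2.67 for Hsp90b1.

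Chaperones and isomerases of the ER were higher in Igf2 cKO muscle almost throughout the list. Of the 14, 13 lay above 0, 12 had an unadjusted p under 0.05 and 12 had groups that did not overlap, while 0 were called by edgeR and 5 by DESeq2. The fold change ran from 0.961 for Dnajb9 to 1.76 for Creld2. Against the control mean, the median member in control replicates 1 to 3 stood at 0.024, 0.054 and -0.091 on the log2 scale, and in Igf2 cKO replicates 1 to 3 at 0.26, 0.55 and 0.41. Igf2 cKO replicate 2 was thus the highest library and replicate 1 the nearest to the controls. Among the muscle fibre markers, replicate 2 also had the lowest Myh4, at 17313 CPM against 33158 to 46329 CPM in controls. It had the highest Myh2, at 2921 CPM against 1117 to 1626 CPM in controls. These markers were named after their values were seen, and the part of fibre type in the chaperone levels was not tested. Without Igf2 cKO replicate 2 the count at an unadjusted p under 0.05 was 8 of 14, with 13 still above 0 and a median of 0.33. With control replicate 3 and Igf2 cKO replicate 3 both left out it was 5 of 14, again with 13 above 0, and the median was 0.37.

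Hspa5 (ENSMUSG00000026864, chromosome 2, 34771970 to 34777547, plus strand, GRCm38) encodes BiP, the HSP70 chaperone that also holds the 3 sensors inactive. It stood at 186, 186 and 180.5 CPM in control replicates 1 to 3 and at 271, 350.2 and 267 CPM in Igf2 cKO replicates 1 to 3. The 3 control libraries lay within a few CPM of each other, the lowest Igf2 cKO library was well above them, and replicate 2 stood apart at the top. The group means were 184 ± 3.24 and 296 ± 47.1 CPM (SD, n = 3 each), which is 0.68 ± 0.13 on the log2 scale (± SE, 95% interval 0.39 to 0.98, adjusted p = 0.112). DESeq2 gave an adjusted p of 2.07e-04 for it. Without Igf2 cKO replicate 2 the log2 fold change was 0.54 (edgeR adjusted p = 0.0785).

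Manf (ENSMUSG00000032575, chromosome 9, 106838312 to 106891979, minus strand) encodes a small ER protein that binds BiP and can be secreted when ER calcium falls. Its level was 16.1, 19.97 and 17.5 CPM in the controls and 31.3, 34.2 and 27.3 CPM in the Igf2 cKO libraries, in order of replicate. The groups were well apart, with every Igf2 cKO library above the highest control. The log2 fold change was 0.79 ± 0.12 (95% interval 0.51 to 1.07, adjusted p = 0.0533), and with any 1 library left out it lay between 0.71 and 0.87. Creld2 (ENSMUSG00000023272, chromosome 15, 88819646 to 88826683, plus strand), an ER-resident protein induced by ER stress, had the largest positive fold change of the 36 tested members. It was counted at 8.82, 8.61 and 6.21 CPM in controls and 14.1, 15.7 and 12.0 CPM in Igf2 cKO muscle, with a log2 fold change of 0.82 ± 0.18 (95% interval 0.41 to 1.22, adjusted p = 0.162). Igf2 cKO replicate 2 was again the highest library for both genes.

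Hyou1, the large chaperone that exchanges the nucleotide of BiP, had 33.7, 36.4 and 37.9 CPM in controls and 46.0, 57.2 and 50.5 CPM in Igf2 cKO replicates 1 to 3, a log2 fold change of 0.51 ± 0.11 (adjusted p = 0.162). Sdf2l1, a cofactor of BiP and its J-domain partners, was the least abundant chaperone and had 4.22, 6.10 and 3.47 CPM against 7.196, 7.86 and 6.03 CPM. The groups of Sdf2l1 overlapped, since control replicate 2 lay above Igf2 cKO replicate 3 (0.61 ± 0.24, adjusted p = 0.441). Hsp90b1 encodes GRP94, the HSP90 of the ER, which folds integrins and insulin-like growth factors. It was at 102, 111 and 89.3 CPM in controls and 120.4, 167 and 133 CPM in Igf2 cKO muscle, with no overlap, and its log2 fold change was 0.47 ± 0.14 (adjusted p = 0.308).

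The lectin chaperones, which bind sugar-bearing proteins and in muscle also sit in the calcium store, were higher by less. Canx (calnexin) had 112, 112 and 108 CPM in controls and 125, 153 and 141 CPM in Igf2 cKO libraries, a log2 fold change of 0.34 ± 0.10 (adjusted p = 0.318). Calr (calreticulin) had 197, 183 and 159.7 CPM against 201, 237 and 224 CPM, and its lowest Igf2 cKO library was only just above its highest control (0.30 ± 0.12, adjusted p = 0.459). The J-domain partners that bring clients to BiP were not alike. Dnajb11 stood at 45.0, 44.5 and 44.5 CPM and then 51.7, 53.8 and 51.0 CPM (0.22 ± 0.082, adjusted p = 0.408), and Dnajc3, also known as an inhibitor of PERK, at 82.9, 79.8 and 77.9 and 94.7, 91.3 and 90.0 CPM (0.20 ± 0.084, adjusted p = 0.490). Both were narrowly but fully separated between the groups. Dnajb9, which restrains IRE1α and is a known target of spliced XBP1, was the one chaperone gene below 0, at 48.0, 53.1 and 50.4 CPM in controls and 45.6, 49.3 and 50.5 CPM in Igf2 cKO muscle (-0.058 ± 0.090, 95% interval -0.26 to 0.15, adjusted p = 0.893).

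The 3 disulfide isomerases each had all Igf2 cKO libraries above all controls. Pdia6, which also damps IRE1α and PERK, had 64.6, 68.1 and 54.1 CPM in controls and 85.9, 93.5 and 84.8 CPM in Igf2 cKO replicates 1 to 3, with a log2 fold change of 0.50 ± 0.11 (95% interval 0.25 to 0.75, adjusted p = 0.162). Pdia4, a partner of BiP, had 30.3, 27.0 and 24.7 CPM against 32.5, 38.2 and 36.2 CPM (0.38 ± 0.11, adjusted p = 0.284). Pdia3 works with the lectin chaperones and was the most abundant of the isomerases, at 127, 138 and 102 CPM in controls and 139, 174 and 144 CPM in Igf2 cKO muscle. Its highest control and its lowest Igf2 cKO library nearly touched, and its log2 fold change was 0.31 ± 0.14 (95% interval -0.0083 to 0.63, adjusted p = 0.519).

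**Figure D2:**
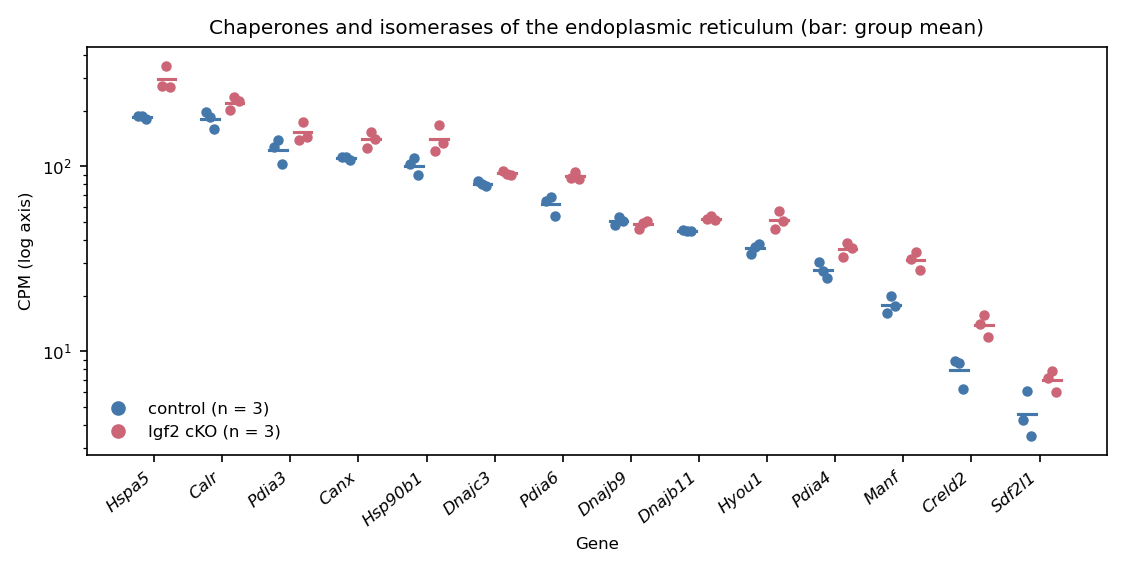
CPM on a log axis of the 14 chaperone and isomerase genes in the 3 control libraries (blue) and the 3 Igf2 cKO libraries (red), with a bar at each group's mean, ordered by control level. In all genes but Dnajb9 and Sdf2l1 the red points lie above the blue ones, from Hspa5 at a control mean of 184 CPM down to Creld2 at 7.88 CPM.

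Since most chaperone genes were higher in the same libraries, the members' promoters were read for the elements through which ATF6 and XBP1 are known to act. RefSeq promoters (GRCm38.p6) were found for 33 of the 38 members, and the 250 bases before the start were searched on both strands. Manf, Hyou1, Atf6, Ppp1r15b and Derl1 had no promoter sequence at hand and were not searched. The ER stress response element (ERSE) was searched as CCAAT, any 9 bases, then CCACG. It was present in 8 of the 33 members and in 35 of 27025 genes overall (0.13%). The 8 were Hspa5, Hsp90b1, Canx, Calr, Creld2, Dnajc3, Pdia6 and Syvn1, and Hsp90b1 held 2 copies. Windows of 6 of these genes are shown 5′ to 3′ on the gene's strand, with 20 bases on each side except for Hspa5, whose element alone is given. Capitals mark the CCAAT and CCACG boxes, or their reverse complements where the element lies on the other strand.
Hspa5: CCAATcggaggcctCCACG
Creld2: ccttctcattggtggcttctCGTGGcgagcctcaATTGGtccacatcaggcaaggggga
Pdia6: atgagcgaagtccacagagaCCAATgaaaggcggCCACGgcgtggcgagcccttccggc
Hsp90b1: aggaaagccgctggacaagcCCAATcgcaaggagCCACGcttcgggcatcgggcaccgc
Canx: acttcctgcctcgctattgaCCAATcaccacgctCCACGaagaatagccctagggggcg
Syvn1: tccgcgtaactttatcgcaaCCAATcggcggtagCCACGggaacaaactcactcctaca
The Hspa5 element lies at chr2:34772025-34772043, from -65 to -47 relative to the RefSeq start, which lies downstream of the gene start given above. Its flanking bases are left out because the window overlaps an annotated exon. The Creld2 window is chr15:88819500-88819558, with the element from -126 to -108, and the Pdia6 window is chr12:17266471-17266529, with the element from -98 to -80. The window of Hsp90b1 is chr10:86705618-86705676 (element from -212 to -194), that of Canx chr11:50325780-50325838 (from -145 to -127) and that of Syvn1 chr19:6046512-6046570 (from -44 to -26).

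Of the 8 members with an ERSE, 7 were higher at an unadjusted p under 0.05, with a median log2 fold change of 0.40. The exception was Syvn1, the degradation ligase HRD1, at -0.016 ± 0.10 (adjusted p = 0.976). Outside the members 27 genes held an ERSE, of which 8 could be tested, and 0 of those had an unadjusted p under 0.05 (0 called by edgeR, median 0.055). They include Ero1b, the oxidase that recharges the isomerases, at 0.10 (adjusted p = 0.916), and Alg12, a mannosyltransferase of the ER, at 0.19 (adjusted p = 0.76), both chosen with their values known. Dnajb11, Sdf2l1 and Pdia4 had promoters in the table without an ERSE in this window and were higher at an unadjusted p under 0.05 as well. The UPRE, searched as TGACG followed by TGG, was present in 0 of the 33 members with a promoter and in 0.603% of genes. A match of letters describes the promoter only and does not show a factor at work there. The members were listed as genes of these responses, so their share with an element is no finding from these libraries.

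Sensors, transcription factors and phosphatase subunits showed no difference that the test could detect. At an unadjusted p under 0.05 there were 0 of 7, and edgeR, DESeq2 and limma-voom each called 0. Xbp1 was the one with separate groups, which is 14.3% of the 7, against 7.83% of all genes separated in that direction. It was at 96.3, 97.0 and 88.5 CPM in controls and 104, 103 and 112 CPM in Igf2 cKO replicates 1 to 3 (0.18 ± 0.091, 95% interval -0.029 to 0.39, adjusted p = 0.576). Counts per gene do not separate its spliced from its unspliced transcript. Atf4 was among the most abundant members, at 165, 186 and 204 CPM and 203, 198 and 184 CPM, and its groups overlapped fully (0.077 ± 0.11, 95% interval -0.18 to 0.33). Since Atf4 is set mainly by translation, its RNA level does not report the amount of ATF4 protein. Ern1 (IRE1α) was at -0.0032 ± 0.12 with means of 23.0 and 23.0 CPM, Eif2ak3 (PERK) at -0.070 ± 0.12 with 17.2 and 16.4 CPM, and Atf6 at -0.015 ± 0.12 with 57.5 and 57.0 CPM. The 95% intervals of these 3 reached no further than -0.35 and 0.27 on the log2 scale. Ppp1r15a (GADD34), the stress-induced phosphatase subunit that ends the response, was at 23.5, 29.3 and 28.6 CPM in controls and 33.1, 32.0 and 24.3 CPM in Igf2 cKO libraries, with overlap (0.14 ± 0.14, adjusted p = 0.824). Its constitutive relative Ppp1r15b (CReP) was at -0.087 ± 0.086 (adjusted p = 0.811).

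Genes of ER-associated degradation, which return misfolded proteins to the cytosol for the proteasome, stood close to 0. Of the 5, 0 had an unadjusted p under 0.05 (and no tool of the 3 called any) and all 5 had overlapping groups. Herpud1, which links the ligase complex to the proteasome and is a well-known stress-induced gene, had 174, 205 and 230.5 CPM in controls and 172, 178 and 202 CPM in Igf2 cKO muscle (-0.14 ± 0.13, 95% interval -0.44 to 0.16). It was the only promoter among the members with the variant ERSE-II (ATTGG, 1 base, CCACG), found in 0.037% of genes, and its window is shown with both boxes in capitals because the gene did not share the higher level of the chaperones.
Herpud1: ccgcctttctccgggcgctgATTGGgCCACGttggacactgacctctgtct
This window is chr8:94386357-94386407, plus strand. Edem1, which directs misfolded glycoproteins to degradation, was at 33.1, 26.2 and 25.0 CPM in controls and 30.8, 35.3 and 30.6 CPM in Igf2 cKO libraries (0.20 ± 0.13, adjusted p = 0.673). Sel1l, the scaffold of the ligase, and Derl1, a channel component, were at 0.019 ± 0.083 and 0.046 ± 0.10, with control means of 95.3 and 115 CPM. The interval of Sel1l ran from -0.17 to 0.21 and that of Syvn1 from -0.23 to 0.20, so a shift of the size seen for Hspa5 lies outside both.

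**Figure D3:**
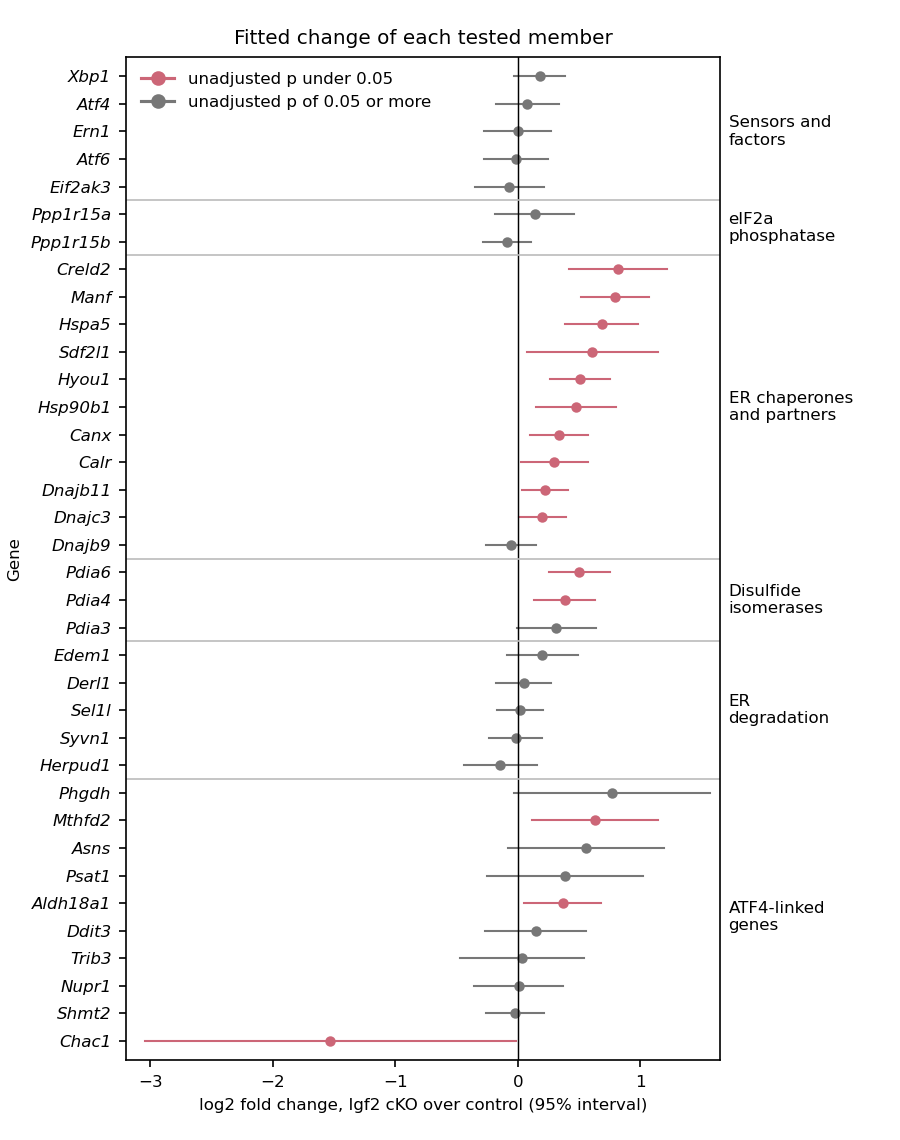
Fitted log2 fold change (points) with its 95% interval (lines) of the 36 tested genes, grouped by role, in red where the unadjusted p is under 0.05 and in grey otherwise. The red points lie to the right of 0 in the chaperones and isomerases, in Mthfd2 and in Aldh18a1, and Chac1 at -1.53 has by far the widest interval, -3.04 to -0.018.

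ATF4-linked genes gave mixed values. Of the 10 that were tested, 8 lay above 0, against 50.8% of all genes, and 0 were called by edgeR or DESeq2. At an unadjusted p under 0.05, 2 were higher and 1 was lower, against 5.11% and 4.82% of all genes. In 2 all Igf2 cKO libraries lay above all controls, against 7.83% of all genes. Mthfd2, the mitochondrial folate enzyme, had 4.55, 2.74 and 3.99 CPM in controls and 6.36, 5.69 and 5.38 CPM in Igf2 cKO muscle, with no overlap (0.63 ± 0.23, 95% interval 0.11 to 1.14, adjusted p = 0.398). Aldh18a1, which starts proline synthesis, had 11.9, 13.3 and 10.2 CPM against 16.5, 15.04 and 13.95 CPM, also with no overlap (0.36 ± 0.14, adjusted p = 0.425). No difference was detected for the genes best known for cell death and feedback. Ddit3 (CHOP) stood at 9.69, 12.5 and 13.6 CPM in controls and 13.6, 15.3 and 10.6 CPM in Igf2 cKO libraries (0.14 ± 0.18, adjusted p = 0.858), and Trib3, the pseudokinase that feeds back on ATF4, at 2.87, 3.86 and 2.81 and 3.24, 3.22 and 3.31 CPM (0.032 ± 0.22, adjusted p = 0.979). Nupr1, a stress-induced chromatin protein, was at 0.0065 ± 0.16 and Shmt2, the mitochondrial serine hydroxymethyltransferase, at -0.023 ± 0.10, both with full overlap, and the sign of Trib3, Nupr1 and Shmt2 changed when single libraries were left out.

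The enzymes of serine and asparagine synthesis had overlapping groups, and the same 2 libraries held their extremes. Phgdh, the first enzyme of serine synthesis, was at 10.2, 7.16 and 3.73 CPM in control replicates 1 to 3 and 12.6, 8.11 and 15.5 CPM in Igf2 cKO replicates 1 to 3 (0.77 ± 0.35, adjusted p = 0.525). Psat1, the next enzyme, was at 7.90, 6.49 and 4.12 and 7.08, 6.44 and 10.8 CPM (0.38 ± 0.28, adjusted p = 0.716). Asns, asparagine synthetase, was at 4.55, 4.20 and 2.68 and 4.30, 5.14 and 7.45 CPM (0.56 ± 0.28, adjusted p = 0.569). In each of the 3 genes control replicate 3 was the lowest library and Igf2 cKO replicate 3 the highest. The summed level of 7 adipocyte markers had the same extremes, at 863, 848 and 492 CPM in controls and 657, 623 and 1525 CPM in Igf2 cKO muscle. Control replicate 3 was also the lowest library for the summed fibroblast markers (4462 CPM) and macrophage markers (292 CPM). In those sums Igf2 cKO replicate 3 was not the highest library (5670 and 346 CPM). With control replicate 3 and Igf2 cKO replicate 3 left out, Phgdh was at 0.25, Asns at 0.10 and Psat1 at -0.094, and the median of the ATF4-linked genes was 0.074. Since these libraries held the extremes of the 3 enzymes, leaving them out lowers those fold changes whatever the cause. The part of fat cells in these values was not tested.

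Chac1, a glutathione-degrading enzyme that is a well-known ATF4 target, was lower in Igf2 cKO muscle by the unadjusted p but was not called. Chac1 (ENSMUSG00000027313, chromosome 2, 119351229 to 119354381, plus strand) stood at 86.6, 161 and 125 CPM in control replicates 1 to 3 and at 14.9, 98.4 and 16.0 CPM in Igf2 cKO replicates 1 to 3. Igf2 cKO replicates 1 and 3 were far below every control, while replicate 2 lay within the control range. The log2 fold change was -1.53 ± 0.66 (95% interval -3.04 to -0.018, adjusted p = 0.498), and no other member passed the series' own cutoff, which asks for a log2 fold change beyond 1 in either direction and an unadjusted p under 0.05 and took 1.58% of all genes. DESeq2 did not take it by that cutoff. Without Igf2 cKO replicate 2 Chac1 was at -3.01 and called by edgeR (adjusted p = 0.00212). Among the Igf2 cKO libraries Chac1 was high where Myh7, the myosin of slow fibres, was high. Myh7, named after its values were seen, had 311, 209.5 and 219.9 CPM in controls and 43.7, 410.2 and 53.0 CPM in Igf2 cKO libraries. Among the controls the order differed, with Chac1 lowest in replicate 1, where Myh7 was highest. The part of fibre type in the level of Chac1 was not tested.

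**Figure D4:**
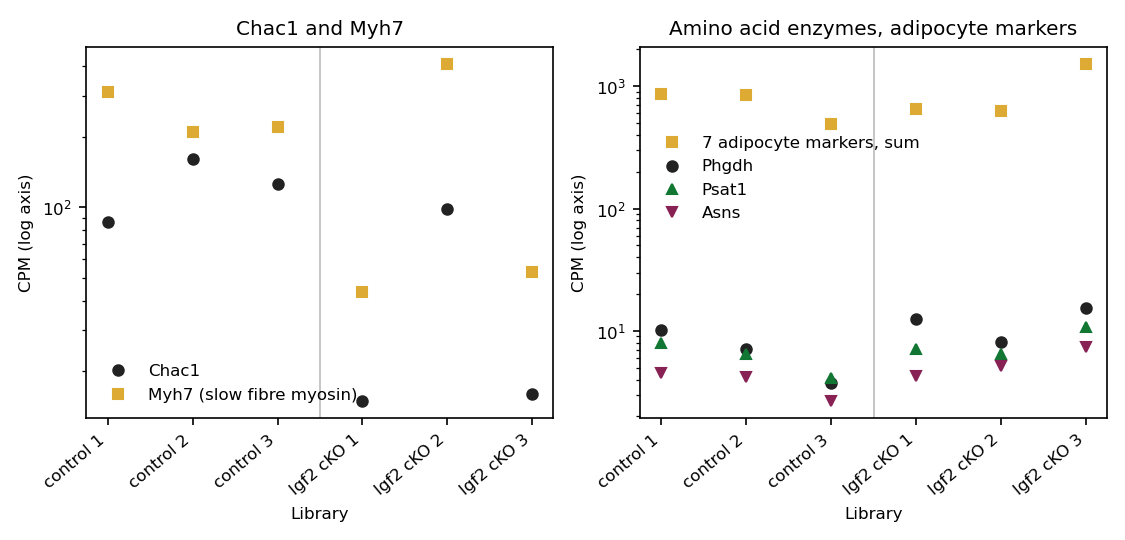
CPM on a log axis in each of the 6 libraries, for Chac1 and Myh7 on the left and for Phgdh, Psat1, Asns and the sum of 7 adipocyte markers on the right, with a grey line between control and Igf2 cKO libraries. Chac1 and Myh7 are both low in Igf2 cKO replicates 1 and 3, and the 3 enzymes and the marker sum all have their lowest value in control replicate 3 and their highest in Igf2 cKO replicate 3.

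The ATF4 binding element CARE, searched as TGATG, any base, AA and any base, was found in 4 of the 12 promoters of the ATF4-linked genes (Chac1, Asns, Fgf21 and Nupr1) and in that of Herpud1, against 3.89% of genes. The window of Chac1 is shown since it had the largest change of the tested members. The capitals mark the element, which lies on the other strand.
Chac1: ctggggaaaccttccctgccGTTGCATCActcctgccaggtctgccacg
It spans chr2:119351028-119351076, with the element from -194 to -186 relative to the start. Of the 4 tested members with a CARE, 1 was lower (Chac1) and 0 were higher at an unadjusted p under 0.05.

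Both secreted hormones of the response were at or near the limit of detection. Fgf21 had 0 counts in all 6 libraries, where 3 counts would be 0.168 to 0.185 CPM. Gdf15, the appetite-suppressing cytokine, was counted 1, 1 and 5 times in the control libraries and 9, 11 and 11 times in the Igf2 cKO libraries. Every Igf2 cKO library had more counts than any control, but the gene did not reach the count filter. Fitted without that filter, its log2 fold change was 2.08 ± 0.79 (edgeR adjusted p = 0.348), a value that depends on the prior count. A second row named Ddit3 (ENSMUSG00000116429), annotated inside the first, had 0 counts throughout. Altogether 12 members share exon bases with another annotated gene, at most 11.4% of their own, and 0 of those neighbours were called by edgeR. No source used here states whether counting was stranded, so reads in the shared bases cannot be assigned with certainty.

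Other genes of the same pathways were read from 8 further lists, of which 121 of 125 matched genes were tested. Of these, 2 were called higher and 0 lower, 18 were higher and 3 lower at an unadjusted p under 0.05, and the median was 0.088. The higher genes made up 14.9%, against 5.11% of all genes. The share was near that of all genes in the serine, proline and one-carbon enzymes (7.69%) and the other ER stress signalling genes (7.14%). It was 0% in the tRNA synthetases. Both calls were in the list of 15 stress response factors and kinases. Ddit4 (REDD1), a brake on mTORC1 that ATF4 and glucocorticoids both induce, rose from 29.9 ± 2.21 to 231 ± 9.11 CPM (SD, n = 3 each; log2 fold change 2.95 ± 0.11, adjusted p = 1.62e-05). Cebpb, a partner of ATF4 on its target genes, rose from 75.2 ± 8.57 to 168 ± 6.78 CPM (1.16 ± 0.11, adjusted p = 0.00718). Atf3, a direct ATF4 target named after its values were seen, had 6.22, 10.1 and 5.17 CPM in controls and 18.7, 23.6 and 14.9 CPM in Igf2 cKO muscle, with no overlap (1.41 ± 0.26, adjusted p = 0.107 by edgeR and 5.50e-05 by DESeq2, which called it).

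Lists linked to amino acid supply had unlike medians. The 7 tested amino acid transporters had a median of 0.43, with 5 above 0 and 2 below. At an unadjusted p under 0.05, 3 were higher (42.9%, against 5.11% of all genes) and 1 was lower. The list was led by Slc38a2, the SNAT2 carrier of small neutral amino acids (0.43 ± 0.12, adjusted p = 0.263), and Slc1a4, a carrier of serine and alanine (0.69 ± 0.23, adjusted p = 0.370). Of 13 other enzymes of serine, proline and one-carbon metabolism, 1 was higher, Psph, the last enzyme of serine synthesis (0.37 ± 0.16, adjusted p = 0.499), and 1 lower, the cytosolic Shmt1 (-0.34 ± 0.14, adjusted p = 0.466). The median of the 13 was -0.020. The 12 cytosolic tRNA synthetases, another ATF4-linked group, had 0 genes at an unadjusted p under 0.05 and a median of 0.037. Wars and Nars, those with the smallest p, were at 0.27 ± 0.15 (adjusted p = 0.614) and 0.11 ± 0.088 (adjusted p = 0.739).

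Further ER genes were shifted by less than the chaperones. Of 20 other folding genes 2 were higher at an unadjusted p under 0.05, Erp44, which retrieves isomerase clients (0.23 ± 0.084, adjusted p = 0.402), and Txndc11 (0.34 ± 0.13, adjusted p = 0.422), and the list had a median of 0.089. Of 25 genes of translocation and glycosylation 4 were higher and 0 lower (median 0.088), with Rpn1, a subunit of the oligosaccharyltransferase, at 0.30 ± 0.090 (adjusted p = 0.311) and Sec61b, of the translocation channel, at 0.47 ± 0.15 (adjusted p = 0.325). Among 15 other degradation genes 3 were higher, including Selenos at 0.40 ± 0.11 (adjusted p = 0.276) and Aup1 at 0.22 ± 0.086 (adjusted p = 0.446), and the median was 0.11. In the 14 other ER stress signalling genes 1 was higher, Atf6b, the relative of Atf6 (0.26 ± 0.10, adjusted p = 0.417), with Creb3l2 next (0.19 ± 0.093, adjusted p = 0.564) and a median of 0.078.

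**Figure D5:**
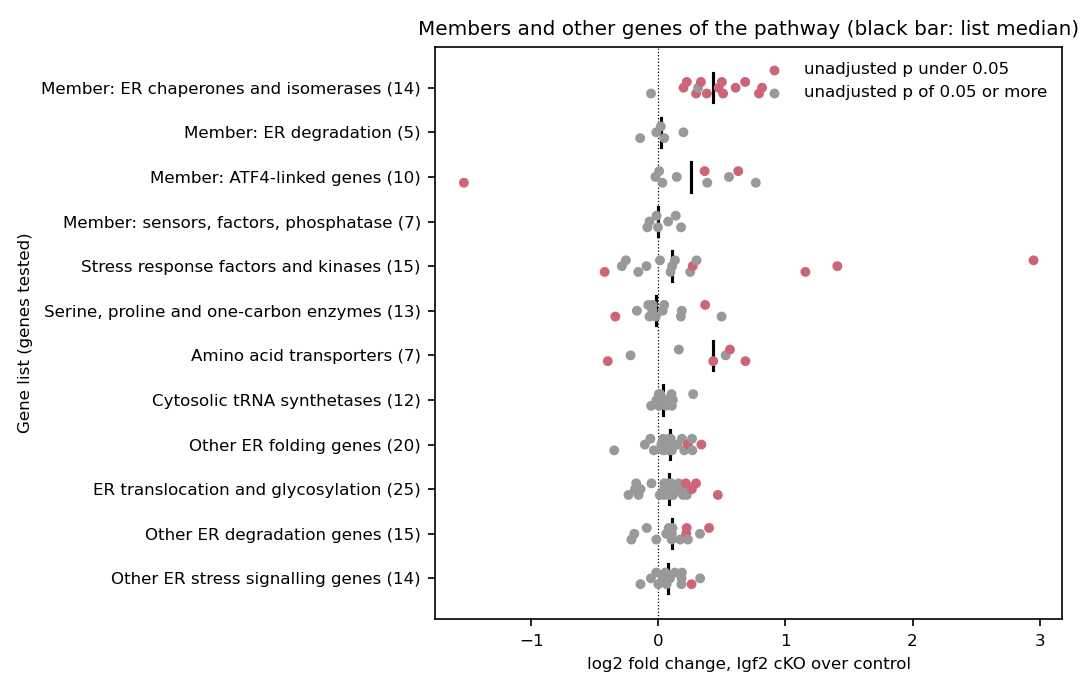
Log2 fold change of each tested gene (points) in the 4 groups of members and in the 8 other pathway lists, with the number tested in brackets, a black bar at each list's median and red points where the unadjusted p is under 0.05. The member chaperones and isomerases lie to the right with a median of 0.43, the other ER lists have medians between 0.078 and 0.11, and Ddit4 is the point at 2.95.

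Markers of other cells in the muscle gave the following values beside these groups. Secretory cells are rich in ER chaperones. The summed level of 7 plasma and B cell markers was 54.3 to 70.3 CPM in controls and 42.2 to 59.6 CPM in Igf2 cKO muscle. Much of that sum was Ighm, with group means of 39.7 and 26.9 CPM. At an unadjusted p under 0.05, 3 of the 5 tested were lower, Jchain (-1.22 ± 0.43), Igkc (-1.07 ± 0.44) and Ighm (-0.56 ± 0.24). By the same rule 1 was higher, Sdc1, with group means of 15.9 and 22.8 CPM (0.52 ± 0.13). Mzb1 also lay above 0 (0.64 ± 0.46). The 7 fibroblast markers summed to 4462 to 10455 CPM in controls and 5670 to 8517 CPM in Igf2 cKO libraries, and the 7 macrophage markers to 292 to 592 and 346 to 491 CPM, with 0 genes of either list at an unadjusted p under 0.05 (0 called by edgeR or DESeq2). Endothelial markers (6 genes) summed to 1196 to 1389 CPM in controls and 849 to 1271 CPM in Igf2 cKO muscle, with 1 lower. The erythroid markers summed to 449 to 618 CPM and 313 to 358 CPM, with all 5 tested lower at an unadjusted p under 0.05, of which edgeR called 0 and DESeq2 3. None of the markers in the 7 lists was at 0 in all libraries, and the part of other cells in the chaperone levels was not tested.

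The authors' deposited table compares single libraries, 1 Igf2 cKO library with the control of the same number. At its adjusted p under 0.05 it holds 1, 0 and 2 of the members in the 3 comparisons, Chac1 in the first and the third and Phgdh in the third, among 95, 72 and 149 genes in all. Its log2 fold changes for Chac1 were -2.53, -0.71 and -2.96, and those for Phgdh 0.30, 0.18 and 2.06. For Hspa5 the authors' deposited table gives 0.55, 0.91 and 0.57 and for Manf 0.96, 0.78 and 0.64, all with an adjusted p above 0.05. Above 0 lay 18 of the 36 members in all 3 of the authors' comparisons, which use the same libraries as the edgeR fit. The share of all genes with that pattern was not counted, so this number is a description only.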

How the data were processed

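Muscle RNA of 3 control and 3 Igf2 cKO mice was sequenced, with each library taken as 1 animal and its group and number read from the sample title. Per the labels, Trizol was used to isolate RNA and an outside company sequenced it (Illumina). Neither the aligner and counter nor their strand setting and genome are stated in the sources used here. In the deposited table, per its headers, every gene has raw counts and FPKM values for the 6 libraries. The authors also deposited log2 fold changes and p-values of 3 pairings of single libraries. There are 6 further columns of sample values whose names match no sample title, and these were left out. Coordinates are those of the table, and 98.33% of its 54409 identifiers that occur in GENCODE M21 have identical start and end there, which gives GRCm38.

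Counts were tested with edgeR 4.0.16 (R 4.3.3) by its quasi-likelihood method, with genotype alone in the model, TMM scaling, filterByExpr and Benjamini-Hochberg adjustment over all 14867 tested genes. The SE was computed from the F statistic. FPKM served to compare levels between genes. Of 39 table rows bearing a member's symbol, 36 were tested. The alternatives were 2 other scalings, testing without a count filter or with a minimum CPM of 1 in 3 libraries, DESeq2 1.42.0, voom of limma 3.58.1, blocking on replicate number, a threshold of 0.1, and omission of each library. Omitting control replicate 3 together with Igf2 cKO replicate 3 was chosen after seeing the data. The script was tested on simulated data with genes changed 1.5-fold, 2-fold and 4-fold, of which it called 19.7%, 66.1% and 90.5%. Of all 118 calls in that run, 7 were false.

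Members and lists were chosen with earlier results of these data known, so no list carries a p-value. All members are named, plus up to 4 called genes per further list (largest fold change first) or, with fewer than 2 calls, the 2 of smallest p. Marker lists covered muscle fibres, fibroblasts, plasma and B cells, macrophages, adipocytes, endothelium and erythroid cells. Promoters are RefSeq sequences of GRCm38.p6. Of the listed pathway genes, 1 was not matched.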

Additional observations from a re-analysis of the deposited data

How the results depend on the processing

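Other size factors, a CPM filter, limma-voom and the replicate block left 34 to 39 genes called and 0 members called. With the replicate block 35 genes were called, and 15 members had an unadjusted p under 0.05 (14 higher, 1 lower), as without it, while Atf3 was called (adjusted p = 0.0151). The replicate numbers are not said to mark litters or days, and the correlations of same-numbered libraries were 0.163, 0.058 and -0.043. Not every library correlated best with its own number. The genes called over all genes (37) were 282 with no count filter, 220 by DESeq2 and 62 at an adjusted p under 0.1. The members called (0) were then 6 (Chac1, Hspa5, Hyou1, Manf, Creld2 and Pdia6), 5 and 1. With any 1 library left out, 8 to 68 genes and 0 to 1 members were called, and 11 to 14 members had an unadjusted p under 0.05. Members passing the rule the series states (1) were 2 with no count filter, 0 with the CPM filter, 0 by DESeq2 and 0 to 2 with 1 library left out. The median of the ATF4-linked genes lay between 0.20 and 0.41 with 1 library left out, where some fits also test Gdf15, and between 0.20 and 0.30 over the same 10 genes. That of the 19 chaperones, isomerases and degradation genes lay between 0.22 and 0.38.

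With control replicate 3 and Igf2 cKO replicate 3 both left out, 1 gene was called, 5 members had an unadjusted p under 0.05, 0 passed the series' rule, and those medians were 0.074 and 0.23. Altogether 11 members changed sign in some alternative, the largest of them Psat1 at 0.38 over all 6 libraries. Nupr1 was at -0.0091 with upper quartile factors. With both libraries left out Trib3 was at -0.064, Psat1 at -0.094, Shmt2 at 0.044, Nupr1 at -0.019 and Derl1 at -0.020. With 1 library left out the range was -0.046 to 0.19 for Trib3, -3.86e-05 to 0.16 for Atf4, -0.095 to 0.076 for Atf6, -0.11 to 0.067 for Ern1, -0.14 to 0.033 for Eif2ak3, -0.093 to 0.022 for Syvn1, -0.12 to 0.15 for Nupr1, -0.012 to 0.032 for Sel1l, -0.096 to 0.026 for Shmt2 and -0.014 to 0.12 for Derl1. The cause of these changes was not tested. In fits that leave 2 libraries in a group the spread of each gene is estimated from fewer libraries. Depth limits Fgf21 and Gdf15.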
